A study of Mus musculus with 9 samples.

Results

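A set of 56 genes that carry out DNA replication and mitosis was followed in RNA-seq libraries of mouse CD8+ T cells kept in 3 media. The set was taken by gene symbol, and no threshold on measured values enters the rule. All 56 were found among the 20618 genes of the deposited tables. Of these, 28 act in replication (Mcm2 to Dtl) and 28 in mitosis (Mki67 to Foxm1), and they are described apart. The cells were labelled as wild type primary cells, and all groups shared the genotype, the 24 h of culture, the 10% dialyzed serum and the sorting of live cells. One group had 2 mM inosine combined with hypoxanthine in its medium (3 libraries, "hypoxanthine medium" from here on). Another group had 2 mM inosine (3 libraries), and the last had 2 mM glucose (3 libraries). Hypoxanthine is the purine base that is released when inosine is broken down, and the main comparison asks what changes when this base is present beside inosine. Nothing in the labels says that the libraries of one medium stem from different mice or cultures, so p-values measure only the spread between these libraries, which may be technical.

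DNA replication begins with licensing: Cdc6 and Cdt1 load the Mcm2-7 helicase ring onto origins, and Cdc45 and the GINS complex then turn it into a moving helicase. Polymerases alpha, delta and epsilon copy the strands with the sliding clamp Pcna, and flap endonuclease and ligase join the fragments. In mitosis, Cdk1 with its cyclins and the Aurora and Polo kinases drive spindle assembly and kinetochore attachment. The checkpoint kinases delay the destruction of cyclins by the anaphase-promoting complex (APC/C). Activated CD8+ T cells divide fast, and these genes are commonly read as markers of cycling cells. Replication genes are mostly switched on by E2F factors before S phase. Mitosis genes are controlled by the DREAM and B-Myb-Foxm1 complexes through a promoter element called CHR.

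The label of CD8+ T cells was met by its markers: the summed level of 6 T cell genes (Cd8a, Cd8b1, Cd3e, Cd3d, Cd3g, Cd2) was 1141 to 1226 FPKM in hypoxanthine medium, 622 to 829.9 FPKM in inosine medium and 680.0 to 733 FPKM in glucose medium. FPKM is a fragment count scaled by gene length and library size, so that levels can be compared between genes. Cd4 did not exceed 0.052 FPKM in any library. The summed level was at most 1.83 FPKM for 4 B cell genes, 3.97 FPKM for 5 myeloid genes, 0.498 FPKM for 3 neutrophil genes, 0.241 FPKM for 2 NK cell genes and 0.132 FPKM for 2 erythroid genes, and Csf1r and Adgre1 were each at 0 in 8 of the 9 libraries. Of the 6 T cell genes, 5 passed the test as higher in hypoxanthine medium than in inosine medium. The part of this in the values below was not tested. Each replication or mitosis gene rested on 895 to 39960 reads, as the authors' mean of normalized read counts per medium. In bulk RNA, fewer cycling cells and less RNA per cycling cell cannot be told apart.

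The control elements named above were looked for in the 250 bases before the annotated start, for the 47 of 56 genes with an entry in the RefSeq promoter table (GRCm38.p6). On both strands, the E2F motifs TTTCCCGC and TTTGGCGC were present in 7 of 29 promoters of replication genes (24.1%), in 0 of 23 promoters of mitosis genes and in 1.3% of all 32851 promoters of the table. A gene can have several starts and so several promoters, and distances below count from the start of the entry shown. The CHR motifs TTTGAA and TTCGAA were present in 5 of 29 replication promoters (17.2%), in 9 of 23 mitosis promoters (39.1%) and in 17.1% of all promoters. The letters CCAAT, the NF-Y motif, were present in 17 of 29 replication promoters (58.6%), 18 of 23 mitosis promoters (78.3%) and 33.8% of all promoters. The promoters of 4 genes described below are printed 5′ to 3′ on the strand of the gene, with the motif in capitals: an E2F motif 165 bases before the start in Mcm7 (minus strand, chr5:138171884-138172133) and 62 bases before it in Hells (plus strand, chr19:38930740-38930989), and CHR motifs 19 bases before the start in Kif11 (plus strand, chr19:37376132-37376381) and 116 and 98 bases before it in Mki67 (minus strand, chr7:135716380-135716629).
Mcm7: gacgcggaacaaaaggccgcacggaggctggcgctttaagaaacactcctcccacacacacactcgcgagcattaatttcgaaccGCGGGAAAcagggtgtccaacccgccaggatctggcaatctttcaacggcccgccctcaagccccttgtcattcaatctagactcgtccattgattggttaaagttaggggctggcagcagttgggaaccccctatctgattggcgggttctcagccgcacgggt
Hells: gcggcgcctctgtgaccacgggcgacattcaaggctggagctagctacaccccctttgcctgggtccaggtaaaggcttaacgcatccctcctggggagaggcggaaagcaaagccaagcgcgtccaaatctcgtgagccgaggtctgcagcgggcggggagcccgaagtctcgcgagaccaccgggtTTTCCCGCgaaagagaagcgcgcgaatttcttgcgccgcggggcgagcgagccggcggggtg
Kif11: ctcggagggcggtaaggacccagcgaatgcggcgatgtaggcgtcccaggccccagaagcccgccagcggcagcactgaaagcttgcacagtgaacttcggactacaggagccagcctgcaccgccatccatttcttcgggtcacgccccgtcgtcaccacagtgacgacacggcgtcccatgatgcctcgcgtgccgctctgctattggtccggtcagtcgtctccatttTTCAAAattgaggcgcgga
Mki67: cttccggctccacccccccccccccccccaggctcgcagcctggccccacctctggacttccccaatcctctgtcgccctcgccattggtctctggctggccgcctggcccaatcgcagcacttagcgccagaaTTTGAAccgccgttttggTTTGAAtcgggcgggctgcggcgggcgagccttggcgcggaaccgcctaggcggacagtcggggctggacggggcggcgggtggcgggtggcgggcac
Each pair holds 1 gene that passed the test between hypoxanthine and inosine (Mcm7, Kif11) and 1 that did not (Hells, Mki67). Among the 7 replication genes with an E2F motif in this window, Mcm7 was the only one that passed, and the log2 differences ran from -0.36 (Hells) to 0.32 (Dtl). Among the 9 mitosis genes with a CHR motif, Kif11 was the only one that passed, and the differences ran from -0.06 (Cdc20) to 0.30 (Kif11). Of all 20618 genes, 21.3% passed in this comparison, so these small counts set neither group of genes apart. The capitals GCGGGAAA in Mcm7 and TTCAAA in Kif11 are motifs read on the other strand, and the Mcm7 window also holds the CHR letters TTCGAA next to its E2F motif. The annotated Mcm7 gene reaches into its window (to position 138172111), as does Mki67 (to 135716450). Hells begins before its window (at 38930262), so these starts are not the outermost ones of their genes. A match of letters describes the window and does not show a site in use.

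All 56 genes were expressed. Mean levels over the 9 libraries ran from 10.8 FPKM (E2f8, a repressor of E2F targets) to 354 FPKM (Pcna) among replication genes, with a median of 37.1 FPKM. Among mitosis genes they ran from 4.96 FPKM (Anln, an actin-binding protein of the cleavage furrow) to 142 FPKM (Top2a), with a median of 30.7 FPKM. Pcna stood at 354 ± 33.7 FPKM (SD, n = 9), apart from all others, and Top2a followed at 142 ± 15 FPKM. The next 5 places were Mcm7 (110.1 ± 15.4 FPKM), Ube2c (107 ± 13.7 FPKM), Mcm6 (105 ± 6.54 FPKM), Mcm3 (100.3 ± 8.60 FPKM) and Mcm5 (97.0 ± 9.94 FPKM). Among these 5, neighbours lay within 1 SD of each other. The lowest places were E2f8 (10.8 ± 1.54 FPKM), Ttk (8.98 ± 0.792 FPKM), Cenpf (5.80 ± 0.905 FPKM) and Anln. The summed level of the replication genes was 1521, 1532 and 1524 FPKM in hypoxanthine medium, 1389, 1643 and 1593 FPKM in inosine medium and 1382, 1609 and 1495 FPKM in glucose medium. That of the mitosis genes was 1093, 1055 and 1089.9 FPKM in hypoxanthine medium, 1030.4, 1113 and 1077 FPKM in inosine medium and 1017, 1142 and 1089 FPKM in glucose medium. For both groups of genes the hypoxanthine libraries lay inside the range of the inosine and of the glucose libraries.

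Adding hypoxanthine to inosine changed a minority of the genes, in both directions. At an adjusted p under 0.05, 11 of 56 genes passed (19.6%): Mcm7, Pold1, Ung, Cenpf, Ndc80, Kif11, Nusap1 and Foxm1 were higher in hypoxanthine medium, and Mcm3, Ccnb1 and Aurka were lower. Of all 20618 genes, 21.3% passed in the same comparison (11.7% higher and 9.59% lower), and of the well expressed genes (an average of 5 FPKM or more over the 9 libraries, met by all of the 56 except Anln) 33.2% passed (14.2% higher and 19.0% lower). The share among the 56 was thus near the share over all genes and below that of genes of similar level. The largest differences on the log2(FPKM + 1) scale were 0.53 (Foxm1) and -0.41 (Ccnb1), which are 1.49-fold higher and 1.34-fold lower mean FPKM. The median of the log2 differences was -0.02 for replication genes and 0.03 for mitosis genes, beside -0.02 for well expressed genes. For 47 of the 56 genes the 95% interval of the difference lay within a change of 1.5-fold either way. The same held for 72.5% of well expressed genes and 85.1% of all genes. The hypoxanthine and inosine libraries did not overlap for 19 of 56 genes, against 49.0% of well expressed genes and 34.4% of all genes. Without hypoxanthine library 3 the number of the 56 that passed was 3 (beside 13.4% of all genes), and without the second libraries of both hypoxanthine and inosine medium together it was 6 (beside 17.3%).

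**Figure D1:**
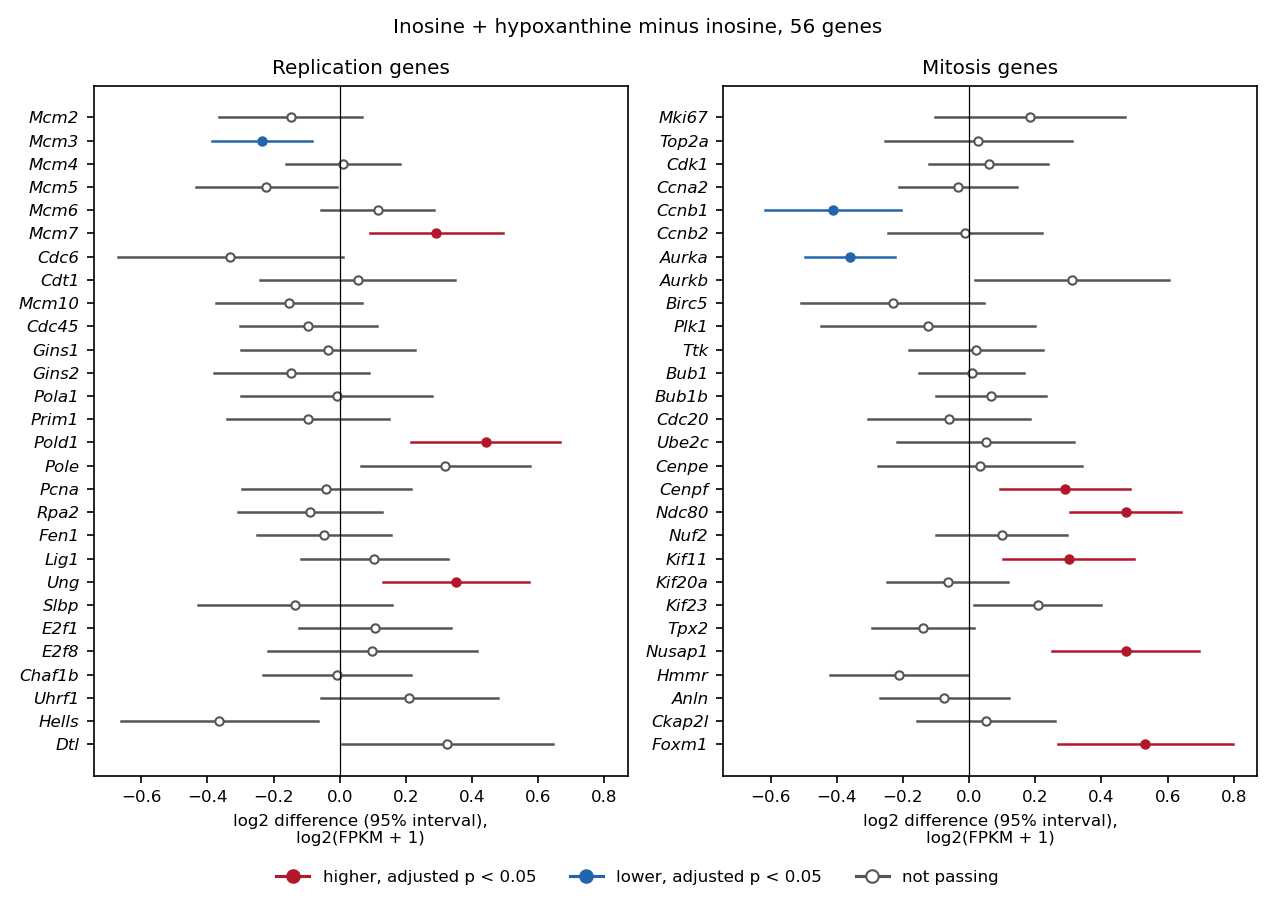
Log2 difference on the log2(FPKM + 1) scale between hypoxanthine and inosine medium (x axis, positive where higher with hypoxanthine) for each replication gene (left) and mitosis gene (right), with points for the estimate and lines for the 95% interval. Filled red points mark the 8 genes that passed as higher, filled blue points the 3 that passed as lower, and most open points lie close to 0.

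Of the replication genes, 4 of 28 passed the test between hypoxanthine and inosine (14.3%, beside 21.3% of all genes and 33.2% of well expressed genes). Of these 4, 2 are subunits of the same helicase ring that moved in opposite directions. Mcm7 (chr5:138164583-138172111) was at 130.3, 128 and 126 FPKM in hypoxanthine medium, 91.2, 113 and 110.4 FPKM in inosine medium and 94.2, 103 and 94.6 FPKM in glucose medium. All 3 hypoxanthine libraries were above the 6 others, and the log2 difference from inosine was 0.29 (SE 0.088, adjusted p = 0.046), with means of 128 ± 2.35 FPKM in hypoxanthine medium and 105 ± 12 FPKM in inosine medium (SD, n = 3 each). Mcm3 (chr1:20802966-20820312) was at 94.3, 85.9 and 90.2 FPKM in hypoxanthine medium, 103, 104 and 112 FPKM in inosine medium and 102, 109.7 and 102 FPKM in glucose medium. Here all 3 hypoxanthine libraries were below the 6 others, with a log2 difference of -0.23 (SE 0.067, adjusted p = 0.036). The other 4 subunits did not pass: the log2 difference was -0.15 for Mcm2, 0.01 for Mcm4, -0.22 for Mcm5 and 0.11 for Mcm6. The loading factor Cdc6 had a difference of -0.33 (95% interval -0.67 to 0.01) and Cdt1 one of 0.05 (-0.24 to 0.35). Exons of Mcm7 overlap on the opposite strand those of Ap4m1, a subunit of an adaptor complex, and of Cops6, a subunit of the COP9 signalosome, and the strand of the libraries is not stated. Ap4m1 was also higher in hypoxanthine medium, at 5.55 against 4.04 FPKM on average (log2 difference 0.38, adjusted p = 0.0093), while Cops6 averaged 99.7 FPKM in hypoxanthine medium and 106 FPKM in inosine medium (adjusted p = 0.33). Mcm7 lost its call in 14 of 19 alternative settings (adjusted p up to 0.13), including without each glucose library, each hypoxanthine library, inosine library 1 and inosine library 3. Mcm3 lost it in 9 (adjusted p up to 0.12), including without each hypoxanthine library, inosine library 3 and glucose library 3.

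None of the 4 helicase-activating genes passed, and all 4 estimates were below 0: the log2 difference was -0.15 for Mcm10, -0.10 for Cdc45, -0.04 for Gins1 and -0.15 for Gins2. Their 95% intervals all lay within a 1.5-fold change. Of the polymerase genes, Pold1 (chr7:44532744-44548815), the catalytic subunit of polymerase delta, rose with hypoxanthine. It was at 39.1, 33.2 and 37.9 FPKM in hypoxanthine medium, 28.3, 23.4 and 28.8 FPKM in inosine medium and 29.2, 29.5 and 26.3 FPKM in glucose medium. No hypoxanthine library fell within the range of the other media, and the log2 difference from inosine was 0.44 (SE 0.099, adjusted p = 0.014). The call of Pold1 was lost without hypoxanthine library 1 (adjusted p = 0.055) and without hypoxanthine library 3 (adjusted p = 0.058). Pole, the catalytic subunit of polymerase epsilon, was at 16.5, 15.1 and 17.3 FPKM in hypoxanthine medium, 12.2, 13.9 and 12.5 FPKM in inosine medium and 11.003, 15.3 and 13.1 FPKM in glucose medium. The hypoxanthine libraries of Pole lay above those in inosine but overlapped those in glucose, and its log2 difference of 0.32 did not pass (SE 0.11, adjusted p = 0.08), though it passed in 6 of the 19 settings, among them without glucose library 1 (adjusted p = 0.036) and without glucose library 2 (adjusted p = 0.044). Pola1 and Prim1, the subunits of polymerase alpha that make and extend primers, had differences of -0.01 and -0.10.

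The clamp and the enzymes that join strands did not pass. Pcna, the most abundant of the 56, was at 327, 391 and 348 FPKM in hypoxanthine medium, 316, 415 and 369 FPKM in inosine medium and 315, 356 and 349.8 FPKM in glucose medium. Its libraries overlapped between media, and the 95% interval of the log2 difference was -0.30 to 0.22. The differences of Rpa2, which coats single-stranded DNA, Fen1, the flap endonuclease, and Lig1, the ligase, were -0.09, -0.05 and 0.10. Ung (chr5:114130366-114139321), the glycosylase that removes uracil from DNA, rose. It was at 19.4, 17.5 and 18.03 FPKM in hypoxanthine medium, 14.7, 12.3 and 15.6 FPKM in inosine medium and 14.3, 16.5 and 14.3 FPKM in glucose medium. The lowest hypoxanthine library stood above every other library, and the log2 difference was 0.35 (SE 0.097, adjusted p = 0.033). The call of Ung was lost in 10 of 19 settings (adjusted p up to 0.11), including without each hypoxanthine library, inosine libraries 1 and 2 and glucose library 3. Slbp, which binds the stem-loop of histone mRNAs, was at 62.98, 68.6 and 64.2 FPKM in hypoxanthine medium, 60.5, 84.5 and 72.3 FPKM in inosine medium and 59.1, 74.8 and 71.8 FPKM in glucose medium. These ranges overlapped, and the difference of -0.14 did not pass (adjusted p = 0.52).

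Neither E2F factor passed. E2f1, an activator of replication genes, was at 13.7, 11.8 and 13.6 FPKM in hypoxanthine medium, 11.8, 11.4 and 12.96 FPKM in inosine medium and 11.3, 14.5 and 12.3 FPKM in glucose medium, with a log2 difference of 0.11 (SE 0.1, adjusted p = 0.53) and overlapping libraries, and E2f8 had a difference of 0.10. Among the 4 genes of chromatin and licensing control none passed, yet they held some of the widest intervals. Hells, a chromatin remodeller needed for DNA methylation, was at 24.3, 27.6 and 26.4 FPKM in hypoxanthine medium, 31.95, 37.8 and 32.2 FPKM in inosine medium and 25.8, 33.9 and 37.3 FPKM in glucose medium. The hypoxanthine libraries lay below the inosine libraries but overlapped the glucose libraries, and the log2 difference of -0.36 did not pass (SE 0.13, adjusted p = 0.085). It passed in 6 of the 19 settings, the lowest adjusted p being 0.0013 in the authors' deposited table, and without glucose library 1 it was 0.024. Dtl, which directs the destruction of Cdt1, had a difference of 0.32 (95% interval 0.01 to 0.64) that passed without inosine library 2 (adjusted p = 0.037). Uhrf1, which reads hemimethylated DNA, and Chaf1b, a histone chaperone, had differences of 0.21 and -0.01. Cdc6 passed without inosine library 1 (adjusted p = 0.039), as did Mcm5 (adjusted p = 0.040).

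**Figure D2:**
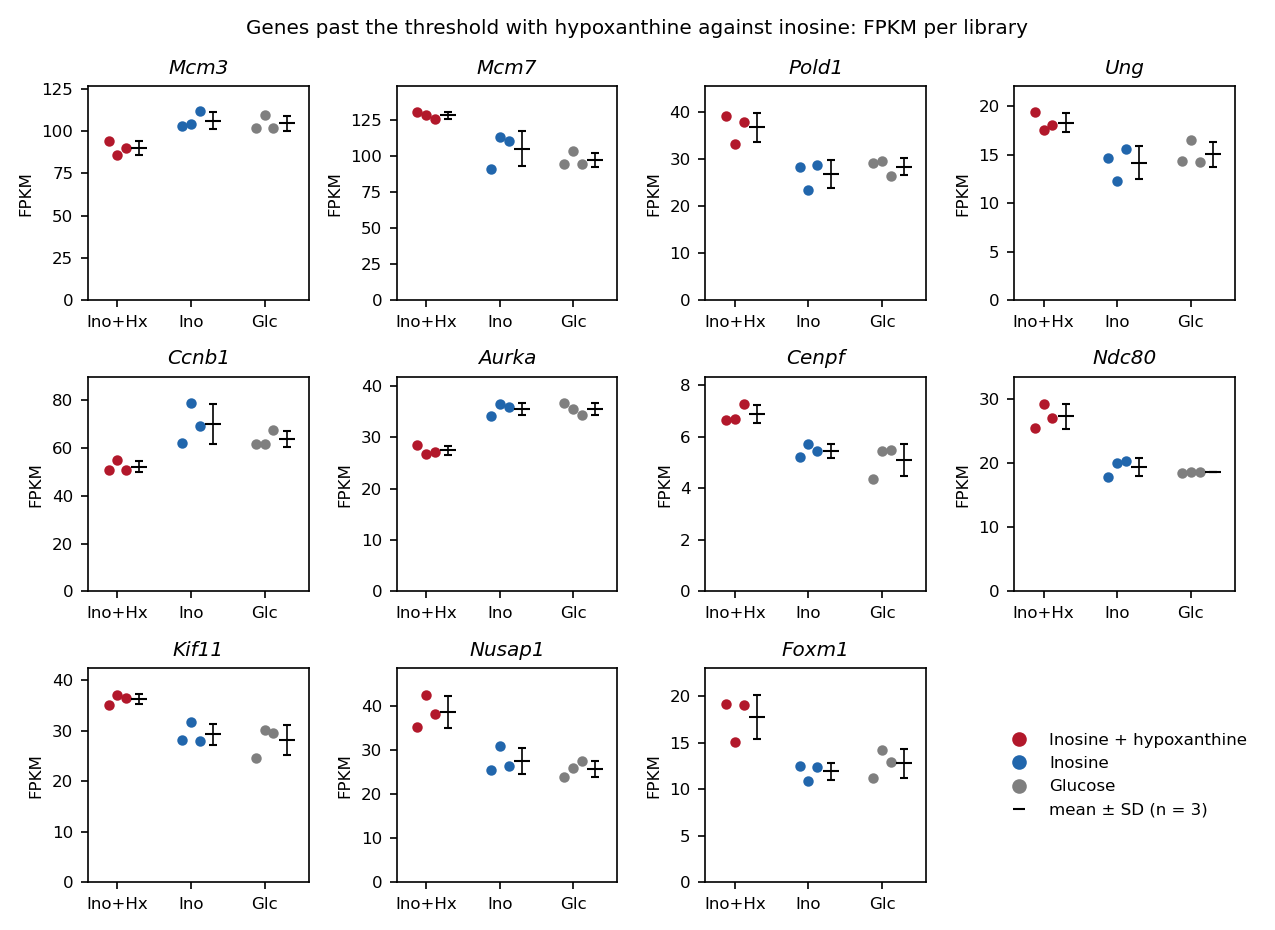
FPKM in each of the 9 libraries (y axis, from 0) for the 11 genes that passed the test between hypoxanthine and inosine, with 1 point per library in hypoxanthine (Ino+Hx), inosine (Ino) and glucose (Glc) medium, and the mean and SD of each medium beside the points. In all 11 panels the 3 hypoxanthine points lie apart from the 6 others, above them in 8 genes and below them in Mcm3, Ccnb1 and Aurka.

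Of the mitosis genes, 7 of 28 passed between hypoxanthine and inosine (25%, beside 21.3% of all genes and 33.2% of well expressed genes). Here 2 kinetochore genes, 2 spindle genes and the factor Foxm1 were higher, and a cyclin and a kinase were lower. The common markers of cycling cells did not pass. Mki67, which coats mitotic chromosomes, was at 57.1, 54.4 and 60.4 FPKM in hypoxanthine medium, 47.2, 52.1 and 51.7 FPKM in inosine medium and 38.1, 54.8 and 51.8 FPKM in glucose medium. Its hypoxanthine libraries lay above the inosine libraries but overlapped the glucose libraries, with a log2 difference of 0.18 (SE 0.13, adjusted p = 0.38). Top2a, the topoisomerase that untangles chromosomes, was at 143, 151 and 148 FPKM in hypoxanthine medium, 127, 162 and 146 FPKM in inosine medium and 109, 146 and 143 FPKM in glucose medium. Its libraries overlapped, and the difference was 0.03 (95% interval -0.25 to 0.31).

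Ccnb1 and Aurka, a cyclin and a kinase that both act at entry into mitosis, fell. Ccnb1 (chr13:100778739-100786486), cyclin B1, was at 50.9, 55.005 and 50.7 FPKM in hypoxanthine medium, 62.3, 78.7 and 69.2 FPKM in inosine medium and 61.7, 61.9 and 67.6 FPKM in glucose medium. The highest hypoxanthine library was below the lowest of the other 6, and the log2 difference was -0.41 (SE 0.091, adjusted p = 0.013). The call of Ccnb1 was lost in 1 of 19 settings, without hypoxanthine library 3 (adjusted p = 0.054). Cdk1, its kinase partner, had a difference of 0.06, and Ccna2 and Ccnb2, the other cyclins of the set, had -0.03 and -0.01, and none of the 3 passed. Aurka (chr2:172356190-172370886), the Aurora kinase of centrosomes and spindle poles, was at 28.5, 26.8 and 27.1 FPKM in hypoxanthine medium, 34.2, 36.5 and 36.02 FPKM in inosine medium and 36.8, 35.6 and 34.3 FPKM in glucose medium. All 3 hypoxanthine libraries lay below the 6 others, and the log2 difference was -0.36 (SE 0.06, adjusted p = 0.0033), with means of 27.5 ± 0.913 FPKM in hypoxanthine medium and 35.6 ± 1.19 FPKM in inosine medium (SD, n = 3 each). Aurka kept its call in each of the 19 settings. Aurkb, the Aurora kinase of the chromosomal passenger complex, and its partner Birc5 had differences of 0.31 and -0.23, and neither passed (adjusted p = 0.13 and 0.23). Tpx2, an activator of Aurora A, had a difference of -0.14 and did not pass. Neither Plk1 (-0.13) nor the spindle checkpoint kinases Ttk (0.02), Bub1 (0.01) and Bub1b (0.07) passed.

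Of the APC/C genes, Ube2c, the E2 enzyme that starts ubiquitin chains, was at 113, 88.98 and 106 FPKM in hypoxanthine medium, 114, 87.97 and 95.4 FPKM in inosine medium and 124, 124 and 112 FPKM in glucose medium. The media overlapped, and the log2 difference from inosine was 0.05 (SE 0.12, adjusted p = 0.82). The activator Cdc20 had a difference of -0.06. Among kinetochore genes, Ndc80 (chr17:71496100-71526857), which binds microtubule ends, gave the smallest adjusted p of the 56. It was at 25.5, 29.3 and 27.1 FPKM in hypoxanthine medium, 17.8, 19.9 and 20.4 FPKM in inosine medium and 18.5, 18.6 and 18.6 FPKM in glucose medium. Every hypoxanthine library stood above every other library, and the log2 difference was 0.47 (SE 0.074, adjusted p = 0.0026), a 1.41-fold higher mean FPKM. Its partner in the same dimer, Nuf2, had a difference of 0.10 that did not pass (adjusted p = 0.49). Cenpf (chr1:189640606-189688107), a large protein of the outer kinetochore, was at 6.66, 6.70 and 7.28 FPKM in hypoxanthine medium, 5.19, 5.71 and 5.43 FPKM in inosine medium and 4.36, 5.43 and 5.47 FPKM in glucose medium. Its hypoxanthine libraries were above all others, with a log2 difference of 0.29 (SE 0.086, adjusted p = 0.044). Cenpe, the kinetochore motor, had a difference of 0.03. Ndc80 kept its call in each of the 19 settings, while Cenpf lost it in 10 (adjusted p up to 0.15), including without each hypoxanthine library, each inosine library and glucose libraries 2 and 3.

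Among the genes of spindle and cytokinesis, Nusap1 (chr2:119618298-119650165), which binds and bundles spindle microtubules, was at 35.3, 42.4 and 38.02 FPKM in hypoxanthine medium, 25.4, 30.8 and 26.3 FPKM in inosine medium and 23.9, 25.8 and 27.4 FPKM in glucose medium. No hypoxanthine library overlapped another medium, and the log2 difference was 0.47 (SE 0.098, adjusted p = 0.0096). Nusap1 kept its call in each of the 19 settings. Its exons overlap on the opposite strand those of Oip5, whose log2 difference was 0.27 (adjusted p = 0.11). Kif11 (chr19:37376382-37421863), the motor that pushes spindle poles apart, was at 35.1, 37.05 and 36.5 FPKM in hypoxanthine medium, 28.1, 31.6 and 28.05 FPKM in inosine medium and 24.7, 30.1 and 29.5 FPKM in glucose medium. The 3 hypoxanthine libraries were the highest of the 9, with a log2 difference of 0.30 (SE 0.088, adjusted p = 0.04), and the call was lost in 9 settings (adjusted p up to 0.12), including without each hypoxanthine library, inosine libraries 1 and 3 and glucose library 3. The kinesins of the central spindle, Kif23 (0.21) and Kif20a (-0.07), did not pass. Nor did Hmmr (-0.21) and Ckap2l (0.05), which bind spindle microtubules, or the furrow protein Anln (-0.07). Foxm1 (chr6:128362994-128375886), the transcription factor of late cell cycle genes, had the largest log2 difference of the 56. It was at 19.2, 15.1 and 18.998 FPKM in hypoxanthine medium, 12.5, 10.9 and 12.3 FPKM in inosine medium and 11.2, 14.2 and 12.9 FPKM in glucose medium. The lowest hypoxanthine library was above every other library, and the log2 difference was 0.53 (SE 0.12, adjusted p = 0.012). Its call was lost in 1 setting, without hypoxanthine library 3 (adjusted p = 0.055). Foxm1 overlaps on the same strand exons of Gm44596 and Tex52. Tex52 did not exceed 0.048 FPKM in any library, and the level of Gm44596 was not examined.

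In the authors' deposited table for hypoxanthine and inosine, which holds the authors' own test, 13 of the 56 genes had an adjusted p under 0.05, 6 replication and 7 mitosis genes, beside 22.7% of all genes with a value. Of these, 10 also passed in the fit described above. Mcm7 did not pass in the authors' deposited table (adjusted p = 0.12), and Cdc6 (0.036), Pole (0.012) and Hells (0.0013) passed there but not in the fit described above. None of the 56 met the authors' own flag for significant genes, in any of their 3 tables. Of all 20618 genes, the flag was met by 1382 between hypoxanthine and inosine, 1374 between hypoxanthine and glucose and 51 between inosine and glucose. The flag is not the threshold of an adjusted p under 0.05, which 4541, 5259 and 1 genes met in the same 3 tables.

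**Figure D3:**
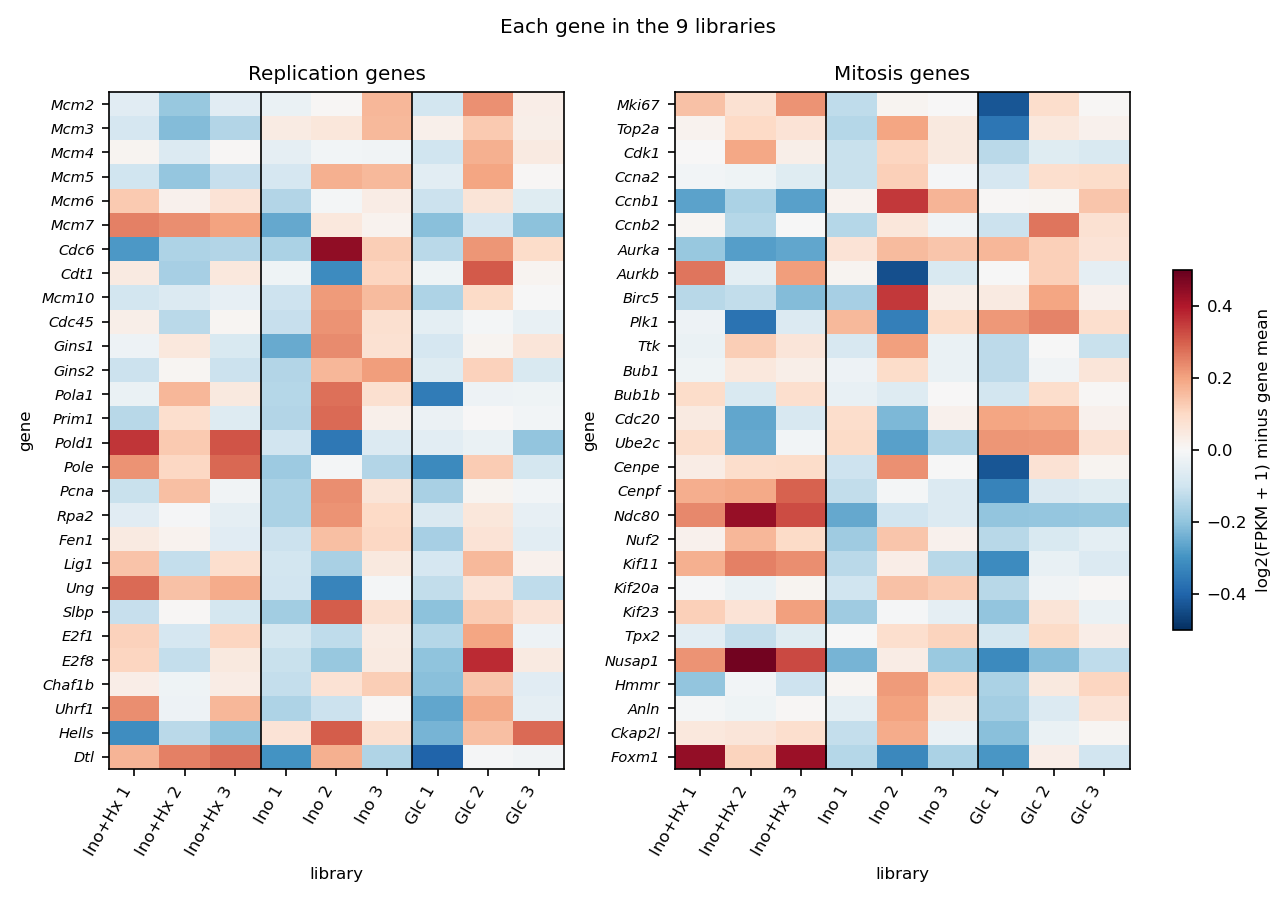
Log2(FPKM + 1) of each replication gene (left) and mitosis gene (right) minus the mean of that gene over 9 libraries (colour, red above and blue below, full colour at 0.5 or more), with 1 column per library and black lines between hypoxanthine (Ino+Hx), inosine (Ino) and glucose (Glc) medium. Rows such as Ndc80, Nusap1 and Aurka change colour between hypoxanthine medium and the rest, while in many others the second inosine library and the first glucose library stand out.

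The comparison of hypoxanthine medium with glucose medium uses the same 3 hypoxanthine libraries, so it is not separate evidence and its values are given side by side. It had 8 of 56 genes past the threshold (14.3%), beside 20.3% of all genes (10.8% higher and 9.55% lower) and 31.1% of well expressed genes (12.3% higher and 18.8% lower). Of the replication genes, Mcm7 was higher by 0.39 (SE 0.088, adjusted p = 0.014) and Pold1 by 0.36 (SE 0.099, adjusted p = 0.033) on the log2 scale. Of the mitosis genes, Nusap1 had a log2 difference of 0.57 (SE 0.098, adjusted p = 0.0044) and Ndc80 one of 0.53 (SE 0.074, adjusted p = 0.0016). Foxm1 was higher by 0.44, Cenpf by 0.38 and Kif11 by 0.36, and Aurka was lower, with a difference of -0.36 (SE 0.06, adjusted p = 0.0036). Mcm3, Ung and Ccnb1, which passed against inosine, had differences from glucose of -0.21, 0.27 and -0.28 that did not pass (adjusted p = 0.055, 0.089 and 0.059). They did pass in 7, 5 and 8 of the 19 alternative settings, among them the authors' deposited table (adjusted p = 0.0040, 0.028 and 0.0011). The medians of the log2 differences were -0.0064 for replication genes and 0.08 for mitosis genes, beside -0.04 for well expressed genes. Hypoxanthine and glucose libraries stood apart for 20 of 56 genes, against 55.6% of well expressed genes and 37.6% of all genes. The authors' deposited table had an adjusted p under 0.05 for 19 of the 56 (beside 26.5% of all genes with a value), and these 19 include all 8. Without hypoxanthine library 3, 4 of 56 genes passed (beside 2677 of all 20618 genes). The number was 5 without glucose library 3 (beside 14.2% of all genes) and 13 without inosine library 2 (beside 23.7%).

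Between inosine and glucose medium, 0 of the 56 genes passed in the limma fit, where 0.00970% of all genes (2 of 20618) did, 0.00485% higher and 0.00485% lower. At an unadjusted p under 0.05 there was 1 of the 56, beside 2.83% of all genes and 1.44% of well expressed genes, and the authors' deposited table had an adjusted p under 0.05 for 0 of them, beside 0.00506% of all genes with a value. That gene was Ube2c, at 114, 87.97 and 95.4 FPKM in inosine medium and 124, 124 and 112 FPKM in glucose medium. Its log2 difference of inosine from glucose was -0.28 (95% interval -0.55 to -0.01, unadjusted p = 0.042). The next among mitosis genes was Cdc20, at 70.3, 56.4 and 67.1 FPKM in inosine medium and 75.9, 75.4 and 67.1 FPKM in glucose medium, with a log2 difference of -0.17 (unadjusted p = 0.14). The inosine and glucose libraries overlapped for both. Of the replication genes, Pola1 (log2 difference 0.20) and Cdt1 (log2 difference -0.18) came closest to the threshold. Pola1 was at 10.8, 14.8 and 12.8 FPKM in inosine medium and 9.21, 11.8 and 11.9 FPKM in glucose medium, and Cdt1 at 22.3, 18.02 and 24.4 FPKM in inosine medium and 22.3, 28.2 and 22.9 FPKM in glucose medium. For all 56 genes the 95% interval of the difference lay within a 1.5-fold change, as for 96.8% of well expressed genes and 98.3% of all genes. The medians were 0.04 for replication genes and 0.06 for mitosis genes, beside -0.02 for well expressed genes. Inosine and glucose libraries stood apart for 0 of the 56 genes, against 5.30% of well expressed genes and 5.05% of all genes.

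**Figure D4:**
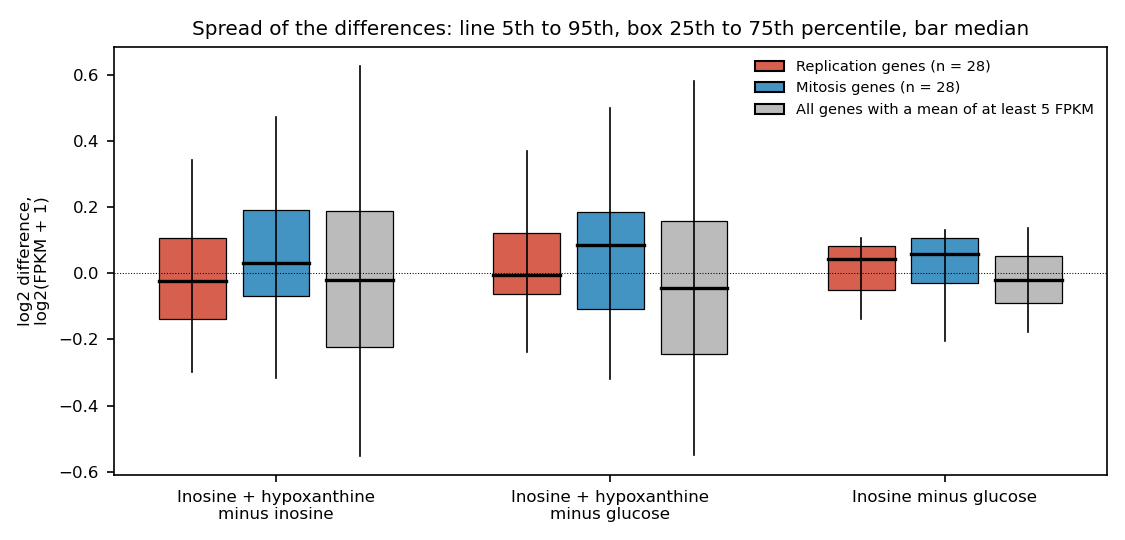
Log2 differences on the log2(FPKM + 1) scale (y axis) in the 3 comparisons (x axis) for replication genes (red), mitosis genes (blue) and all well expressed genes (grey), with boxes for the 25th to 75th percentile, bars for the median and lines for the 5th to 95th percentile. In the comparisons with hypoxanthine both groups of genes spread less than the grey set, whose lines run from -0.55 to 0.63 against inosine.

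The genes varied between libraries of the same medium, and the deviations of single libraries went with base composition. On the log2(FPKM + 1) scale, the SD between the 3 libraries had a median of 0.074 in hypoxanthine, 0.16 in inosine and 0.13 in glucose medium over replication genes, and of 0.070, 0.12 and 0.096 in the same media over mitosis genes. Across the 56 genes, the deviation of a library from the mean of its medium was correlated with the GC content of the transcript at r = 0.79, -0.72 and 0.30 for hypoxanthine libraries 1 to 3. For inosine libraries 1 to 3 the r was 0.48, -0.70 and 0.74, and for glucose libraries 1 to 3 it was 0.37, 0.33 and -0.81. These are descriptions over 56 genes that share a library, its depth and its base composition. Over 9638 genes with a GC value the same correlations ran from -0.57 (glucose library 3) to 0.45 (hypoxanthine library 1). The log2 difference between media was correlated with GC content at r = 0.12 for hypoxanthine and inosine, -0.18 for hypoxanthine and glucose, and -0.64 for inosine and glucose, and the part of base composition in the differences was not tested. With each library adjusted for GC content, 13 of 56 genes passed between hypoxanthine and inosine, beside 27.2% of the 17018 genes with a GC value, and 16 of 56 between hypoxanthine and glucose, beside 26.5%.

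**Figure D5:**
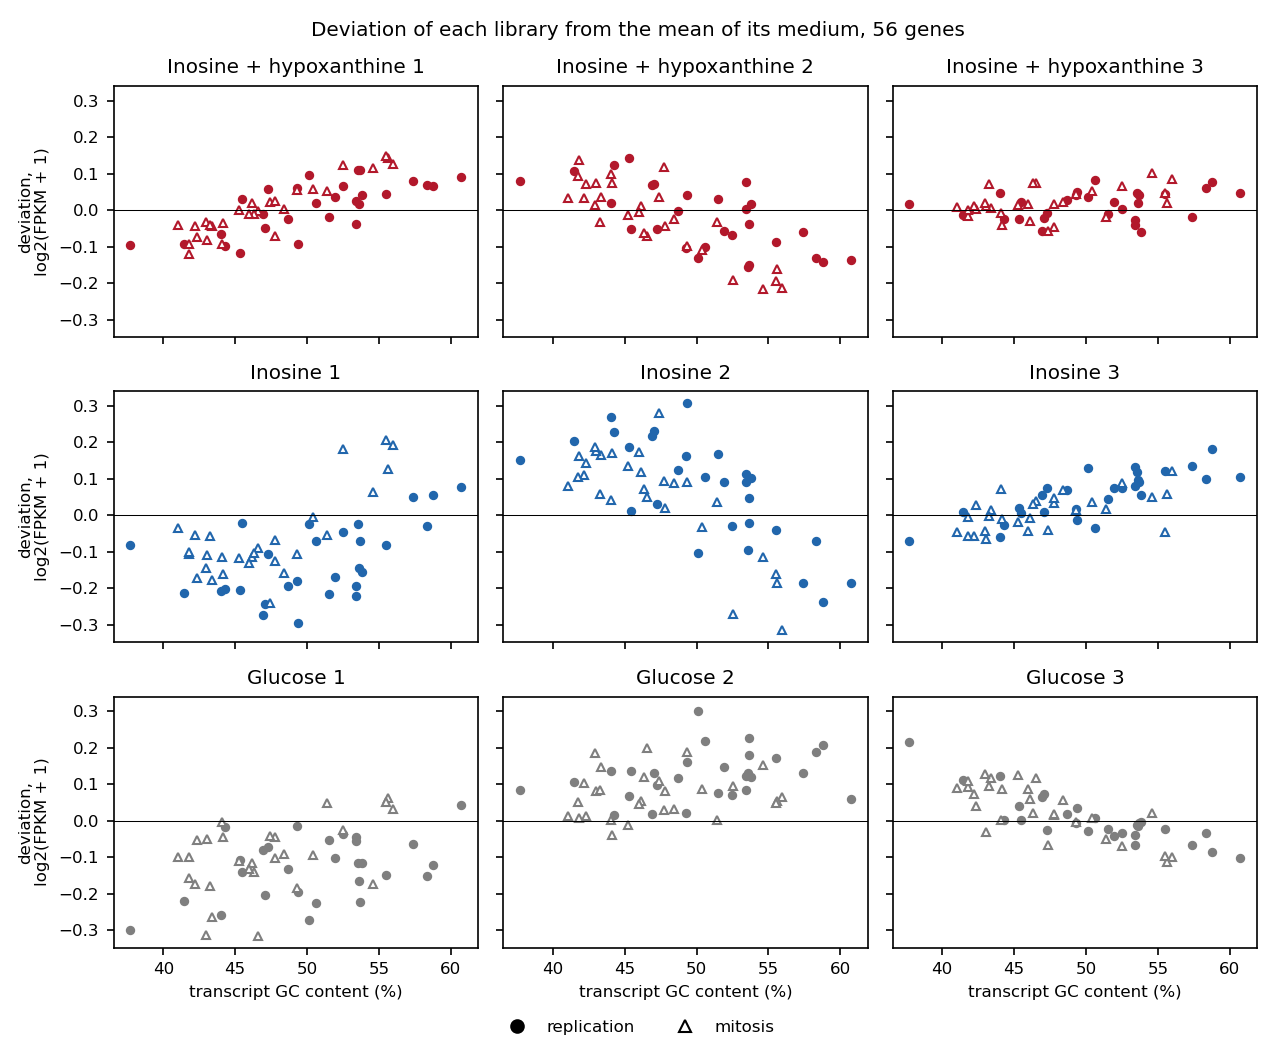
Deviation of each library from the mean of its medium on the log2(FPKM + 1) scale (y axis) against the GC content of the transcript in percent (x axis), for 28 replication genes (filled circles) and 28 mitosis genes (open triangles), with hypoxanthine libraries in the top row, inosine in the middle and glucose at the bottom. The points slope upwards in hypoxanthine library 1 (r = 0.79) and downwards in hypoxanthine library 2 (r = -0.72), inosine library 2 (r = -0.70) and glucose library 3 (r = -0.81).

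Other genes of the same pathways moved in both directions as well. Of 58 other replication genes, 7 were higher and 8 lower in hypoxanthine than in inosine medium, and the median log2 difference was -0.04. Thus 25.9% of this list passed, beside 21.3% of all genes and 33.2% of well expressed genes. Those with the largest rises were E2f2, an activating E2F factor, at 0.64 (SE 0.079, adjusted p = 0.00088), Pold4, a small subunit of polymerase delta, at 0.57 (SE 0.091, adjusted p = 0.0028), and Rnaseh2a, a ribonuclease of RNA-DNA hybrids, at 0.55 (SE 0.11, adjusted p = 0.0072). Those with the largest falls all encode subunits of the origin recognition complex: Orc2 at -0.54 (SE 0.059, adjusted p = 0.00046), Orc1 at -0.48 (SE 0.096, adjusted p = 0.0081) and Orc6 at -0.37 (SE 0.095, adjusted p = 0.026). Of 69 other mitosis genes, 8 were higher and 3 lower (15.9%, beside the same 21.3% and 33.2%), with a median of 0.08. The largest rises were in Iqgap3, a scaffold protein, at 0.75 (SE 0.091, adjusted p = 0.00077), Cdc25b, a phosphatase that activates Cdk1, at 0.48 (SE 0.13, adjusted p = 0.031), and Troap at 0.43 (SE 0.091, adjusted p = 0.011). The 3 that fell were Psrc1 at -0.68 (SE 0.16, adjusted p = 0.017), Gtse1 at -0.63 (SE 0.11, adjusted p = 0.0043) and Cks2, which binds Cdk1, at -0.42 (SE 0.085, adjusted p = 0.0085). Against glucose, 5 of these replication genes were higher and 8 lower (22.4%), and 7 of these mitosis genes were higher and 3 lower (14.5%). Of all genes 20.3% passed there, and of well expressed genes 31.1%. Between inosine and glucose 0 of either list passed in limma, beside 0.00970% of all genes.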

How the data were processed

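RNA-seq of total RNA from sorted CD8+ T cells was paired-end on an Illumina instrument, per the labels' protocols. HISAT2, featureCounts, Subread 2.0.1 and DESeq2 1.38.3 with the mm10 genome are named, with no role, per the submitters' processing notes. Per library, the authors deposited FPKM values of each gene, with no further scaling stated. Group mean signals deposited by the authors behave as normalized read counts and were used for depth. The log2 fold changes and p-values in the tables were made by the authors. In the tables that include hypoxanthine, the deposited log2 fold change is the control over hypoxanthine, so its sign was turned.

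All 20618 genes and 9 libraries were fitted at once with limma 3.58.1 (R 4.3.3, trend and robust, 1 mean for each medium, leaving 6 residual degrees of freedom) on log2(FPKM + 1), with no filter. A fold change on this scale understates the change of low genes. Every adjusted p in the text is limma's with Benjamini-Hochberg adjustment over all genes, unless the authors' deposited table is named, and "passed" means an adjusted p under 0.05. Intervals are 95% intervals of that fit. The fit was run on simulated data with known changes, whose noise was drawn for each gene on its own. The deviations that genes of a real library share are not in that simulation, so it cannot show how they affect the calls. Coordinates and promoters are from RefSeq (GRCm38.p6), and overlaps and GC content from GENCODE M21 on the same assembly. Of the 56 genes, 17 overlap exons of another annotated gene, and the strand of the libraries is not stated.

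The genes, lists and tests were chosen with earlier results of these data known. Values are shown library by library for the 6 replication and the 6 mitosis genes with the smallest p between hypoxanthine and inosine, the 2 of each with the highest level, the passing genes that went against the median of their group, and Pcna, Mki67, Slbp, Ung, E2f1 and Foxm1. Cenpf, Pola1, Cdt1 and Cdc20 are shown as well, the last 3 for their p between inosine and glucose. Of the other pathway genes, the 3 largest that passed in each direction are named. The alternatives were a pseudocount of 0.1, a filter at a mean of 1 FPKM, other scalings, other fits, the authors' test and each library left out.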

Additional observations from a re-analysis of the deposited data

How the results depend on the processing

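Across the 19 alternative settings, Aurka, Ndc80 and Nusap1 kept their calls in both comparisons with hypoxanthine, and 0 of the 56 genes passed between inosine and glucose in each of them. No called value changed its direction. Of 3192 values of single genes, 59 gained and 72 lost their call, and 156 changed sign without being called in either fit. The settings moved the median over all genes by -0.0235 to 0.0148 on the log2 scale.

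For hypoxanthine against inosine, 3 replication genes were higher and 1 lower, and 5 mitosis genes were higher and 2 lower. Rescaling to TPM, where levels of a library sum to a constant, left 1 replication gene higher and 0 lower and 3 mitosis genes higher. Without the second libraries of both hypoxanthine and inosine medium, an alternative chosen after seeing the data, the same numbers were 1, 0 and 3. The replication genes that were lower numbered 2 with the filter, 2 with the replicate block, 2 with the GC adjustment (also chosen after seeing the data) and 3 in the authors' deposited table. The share of all genes tested that passed was 21.3% in the fit described above and 21.3% with the replicate block. It was 18.1% with TPM, 17.3% without both second libraries, 39.5% with the filter, 27.2% with the GC adjustment and 22.7% in the authors' deposited table. For hypoxanthine against glucose, 2 replication genes were higher and 0 lower, and 1 mitosis gene was lower. Replication genes that were higher numbered 5 with the filter, 5 in the authors' deposited table, 5 with the GC adjustment and 1 with TPM, and those that were lower numbered 1 with the filter, median-of-ratios scaling, the 6 libraries alone or no trend, 4 in the authors' deposited table and 2 with the GC adjustment. Mitosis genes that were lower numbered 2 with the filter, TPM or without both second libraries, 3 in the 6 libraries alone, 5 in the authors' deposited table and 4 with the GC adjustment. Against glucose, 20.3% of all genes tested passed in the fit described above and 38.5% with the filter. The share was 26.5% in the authors' deposited table, 26.5% with the GC adjustment and 18.2% with TPM. It was 20.8% with median-of-ratios scaling, 22.2% in the 6 libraries alone, 20.2% with no trend and 20.0% without both second libraries. Between inosine and glucose, the 2 genes called among all became 0 with the filter, the 6 libraries alone, no trend or the GC adjustment, and 1 with the replicate block, in the authors' deposited table or without both second libraries. The cause of these changes was not tested.

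Leaving out 1 library at a time, the genes called among all ranged from 2757 (without hypoxanthine library 3) to 4487 for hypoxanthine against inosine, beside 4382. Of the replication genes 0 to 3 were higher and 0 to 3 lower, and of the mitosis genes 2 to 5 higher and 1 to 2 lower. For hypoxanthine against glucose, all genes called ranged from 2677 (without hypoxanthine library 3) to 4879, beside 4192, with 0 to 4 replication genes higher and 0 to 1 lower, and 2 to 5 mitosis genes higher and 1 to 3 lower. Between inosine and glucose the range was 1 to 7 genes. In the glucose comparison the calls lost by leaving out 1 library were those of Mcm7 (without glucose library 3, adjusted p = 0.054), Cenpf (without hypoxanthine library 3, 0.066), Kif11 (without hypoxanthine library 2, 0.062, or 3, 0.070), Pold1 (without any glucose library or hypoxanthine library 1 or 3, 0.059 to 0.12) and Foxm1 (without glucose library 1 or 3 or hypoxanthine library 1 or 3, 0.073 to 0.10). The labels tie the library numbers to no shared mouse or batch. Over 9947 genes, deviations of same-numbered libraries from their medium correlated at 0.41, 0.64 and 0.018 (numbers 1 to 3) between hypoxanthine and inosine, and from -0.27 to 0.40 in the pairs with glucose. Over the 56 genes the same values were 0.70, 0.80 and 0.17 between hypoxanthine and inosine. For hypoxanthine and inosine, 2 of 3 libraries of each medium correlated best with their own number, over all genes and over the 56. A fit with the replicate number as a block called 4396 genes for hypoxanthine against inosine and 4251 for hypoxanthine against glucose. Of the 56, it called 11 against inosine, without Mcm3 (adjusted p = 0.065) and Ung (0.056) and with Cdc6 (0.045) and Hells (0.043), and 9 against glucose, with Dtl (0.036) added.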

Other observations

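Ratios within a library do not depend on its total. For 3 pairs of genes, chosen after their values were seen and so given without a test, the ratio of FPKM values set hypoxanthine medium apart from the other 6 libraries. Mcm7 over Mcm3, subunits of the same helicase ring, was 1.382, 1.493 and 1.392 in hypoxanthine medium, 0.887, 1.087 and 0.987 in inosine medium and 0.925, 0.939 and 0.926 in glucose medium. Ndc80 over Nuf2, which form a dimer, was 1.284, 1.328 and 1.293 in hypoxanthine medium, 1.035, 0.922 and 1.025 in inosine medium and 1.050, 1.004 and 0.986 in glucose medium. Aurkb over Aurka was 1.793, 1.524 and 1.810 in hypoxanthine medium, 1.248, 0.848 and 1.111 in inosine medium and 1.148, 1.294 and 1.193 in glucose medium. Each ratio shows unequal change of its 2 genes and not which of them changed. Mcm7, Mcm3, Ndc80 and Aurka each set hypoxanthine medium apart by themselves, so these ratios largely repeat the differences given above.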
